A study of Mus musculus with 2 samples.

Results

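The chemokine receptor *Cxcr3* and its ligands *Cxcl9*, *Cxcl10* and *Cxcl11* were followed through the immune cells of B16-F10 melanoma, a transplanted mouse tumor. The 4 genes were chosen by symbol, and 3 of them were among the 31253 genes listed for both libraries. *Cxcl11*, which GENCODE vM21 types as a polymorphic pseudogene (ENSMUSG00000060183, chromosome 5, 92359544 to 92365485 of GRCm38), was not analysed here. *Cxcl9* and *Cxcl10* are secreted chemokines that myeloid cells and other cells make in response to interferon-γ, and *Cxcl10* also responds to type I interferon and NF-κB signals. Their shared receptor is a G protein-coupled receptor of activated T cells, NK cells and plasmacytoid dendritic cells, which move toward the ligands. In tumors the ligands are best known as products of macrophages and dendritic cells that draw effector T cells.

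Cd45+ cells were sorted from tumors on day 10 after subcutaneous injection of 200000 B16-F10 cells into C57BL/6 mice that were *Irg1*+/+ or *Irg1*-/-. *Irg1*, listed as *Acod1*, encodes the enzyme that makes itaconate. Pieces of 100 mm3 from the tumors of 3 mice of a genotype were pooled into 1 library, so there was no replicate of either genotype and no test between them, and a difference between the libraries cannot be told apart from other differences between the pools. Of 6408 and 5896 cells in the *Irg1*+/+ library and in the library labelled *Irg1*-/-, 6284 and 5794 were kept, with 42105693 and 35307041 unique molecular identifiers (UMIs) and medians of 4528 and 4594.5 UMIs per cell. The libraries shared 36 cell barcodes. *Acod1* had 3696 UMIs in the *Irg1*+/+ library and 3805 in the library labelled *Irg1*-/-, or 87.8 and 108 CPM (the UMIs of a gene relative to all UMIs of the cells summed, scaled to 1000000 UMIs). The transcript of the deleted gene was therefore not reduced under the label *Irg1*-/-, and every direction given here rests on the labels. Whether the counted transcript end lies outside the deleted part is not given in the sources used here.

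Each cell was placed in a class by marker genes that did not include the 4 genes, and class names mean only that a cell was like the named type by those markers. The largest classes of the *Irg1*+/+ library were T cell-like (1311 cells there and 750 in the other library), macrophage-like (805 and 706) and Vcan monocyte-like cells (740 and 808). NK cell-like cells numbered 402 and 738, and in the library labelled *Irg1*-/- they outnumbered macrophage-like cells. Dendritic cells fell into cDC1-like (285 and 180) and cDC2-like cells (261 and 431), the conventional types, plasmacytoid-like (70 and 64) and *Ccr7*- and *Fscn1*-bearing mature DC-like cells (397 and 314). The markers left 23.6% and 19.99% of cells without a class, and in 264 and 199 cells the lead over the next class lay within 0.05 of the one required. Melanocyte-like cells, which a Cd45+ sort should leave out, numbered 98 and 16. All intervals are 95% intervals (Poisson for CPM, conditional binomial for ratios, Clopper-Pearson for shares) and cover counting error alone.

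*Cxcl9* (ENSMUSG00000029417) lies on the minus strand of chromosome 5 from 92321347 to 92328079 of GRCm38, and *Cxcl10* (ENSMUSG00000034855) follows 18558 bases further on the same strand, from 92346638 to 92348889. *Cxcl10* lies within the span of *Art3* (92331827 to 92414628) on the opposite strand, which had 79 and 62 UMIs over all kept cells. *Cxcr3* (ENSMUSG00000050232) is on the minus strand of chromosome X from 101731535 to 101734269. The start-site regions of the 3 genes (RefSeq, GRCm38.p6, 300 bases each, ending 50 bases after the start site) are shown because the ligands are read out together below, and they differ in their matches to motifs of interferon and NF-κB signaling. They lie at chr5:92328030-92328329, chr5:92348840-92349139 and chrX:101734098-101734397, and are written 5′ to 3′ on the gene strand with motif matches in capitals.
Cxcl9: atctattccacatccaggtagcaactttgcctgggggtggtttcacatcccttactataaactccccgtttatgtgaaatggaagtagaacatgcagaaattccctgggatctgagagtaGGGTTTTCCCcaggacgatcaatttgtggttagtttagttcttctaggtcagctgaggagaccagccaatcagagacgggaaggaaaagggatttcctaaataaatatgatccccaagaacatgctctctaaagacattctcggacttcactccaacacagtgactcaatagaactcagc
Cxcl10: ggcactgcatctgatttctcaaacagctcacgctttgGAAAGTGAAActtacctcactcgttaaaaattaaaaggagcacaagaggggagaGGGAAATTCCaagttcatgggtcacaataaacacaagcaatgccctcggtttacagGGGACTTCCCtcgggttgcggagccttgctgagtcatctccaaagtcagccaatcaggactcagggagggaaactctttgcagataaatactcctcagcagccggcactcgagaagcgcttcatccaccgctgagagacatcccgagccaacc
Cxcr3: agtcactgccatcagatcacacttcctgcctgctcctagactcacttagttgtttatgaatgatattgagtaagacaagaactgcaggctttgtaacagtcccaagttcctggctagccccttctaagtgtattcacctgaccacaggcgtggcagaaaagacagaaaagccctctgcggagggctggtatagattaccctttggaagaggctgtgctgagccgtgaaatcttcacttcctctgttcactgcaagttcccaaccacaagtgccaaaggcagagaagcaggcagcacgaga
Both strands were searched for GAAA followed by any 2 bases and GAAA (the core of the interferon-stimulated response element, ISRE), for GGGA followed by any 4 bases and CC (κB) and for TTC followed by any 3 bases and GAA (the interferon-γ-activated site, GAS), which are found in 3.44%, 20.7% and 8.30% of 32851 start-site regions of this length. *Cxcl10* held 1 ISRE core match, starting 213 bases before the start site, and 2 κB matches, at 159 and 103 bases. *Cxcl9* held 1 κB match at 130 bases and no ISRE core or GAS match, and *Cxcr3* held none of the 3. A match is a run of letters and not a binding site.

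Ligand RNA was concentrated in myeloid and dendritic cells. The *Irg1*+/+ library had 29847 UMIs of *Cxcl9*, or 709 CPM (701 to 717), and the library labelled *Irg1*-/- 36893 UMIs, or 1045 CPM (1034 to 1056). *Cxcl10* had 12022 UMIs (286 CPM, 280 to 291) and 13192 UMIs (374 CPM, 367 to 380). Among the 12 classes with at least 50 cells in each library, cDC2-like cells had the highest *Cxcl9* level by summed UMIs in both, at 1447 CPM (1394 to 1501) and 1468 CPM (1427 to 1509). In the *Irg1*+/+ library they were followed by neutrophil-like cells at 1084 CPM (947 to 1236) and macrophage-like cells at 1040.3 CPM (1020.1 to 1060.8), whose intervals overlap. Then came cDC1-like cells at 955 CPM (922 to 989), cells between monocyte and macrophage at 791 CPM (733 to 853) and Vcan monocyte-like cells at 750.4 CPM (724 to 778), the last pair with overlapping intervals. In the library labelled *Irg1*-/- macrophage-like cells at 1399.7 CPM (1372 to 1427) touched the interval of cDC2-like cells. Below them lay cDC1-like cells at 1278 CPM (1226 to 1330.5) and Vcan monocyte-like cells at 1166 CPM (1134 to 1198), which did not overlap, while neutrophil-like cells were at 608 CPM (542 to 679). The order rests in part on summing UMIs. By the mean of each cell's own CPM, neutrophil-like cells of the *Irg1*+/+ library were at 668, below cDC1-like (1053), macrophage-like (946) and Vcan monocyte-like cells (757), and in the library labelled *Irg1*-/- cDC1-like cells at 1462 were above cDC2-like cells at 1385.

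The order for *Cxcl10* was another. In the *Irg1*+/+ library neutrophil-like cells (73 cells) had 881 CPM (758 to 1019), of which 1 cell held 59 of 182 UMIs, and a mean of each cell's own CPM of 442, below those of cDC2-like (599.8), Vcan monocyte-like (638) and nonclassical monocyte-like cells (568). Then cDC2-like cells at 673 CPM (637 to 710), Vcan monocyte-like cells at 642 CPM (618 to 667) and nonclassical monocyte-like cells at 638 CPM (578 to 701) overlapped each other. Macrophage-like cells lay at 305 CPM (294 to 316) and cDC1-like cells at 64.3 CPM (56.0 to 73.6). In the library labelled *Irg1*-/- cDC2-like and Vcan monocyte-like cells were highest, at 732 and 713 CPM with overlapping intervals, and macrophage-like cells lay at 297 CPM (284 to 309).

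**Figure D1:**
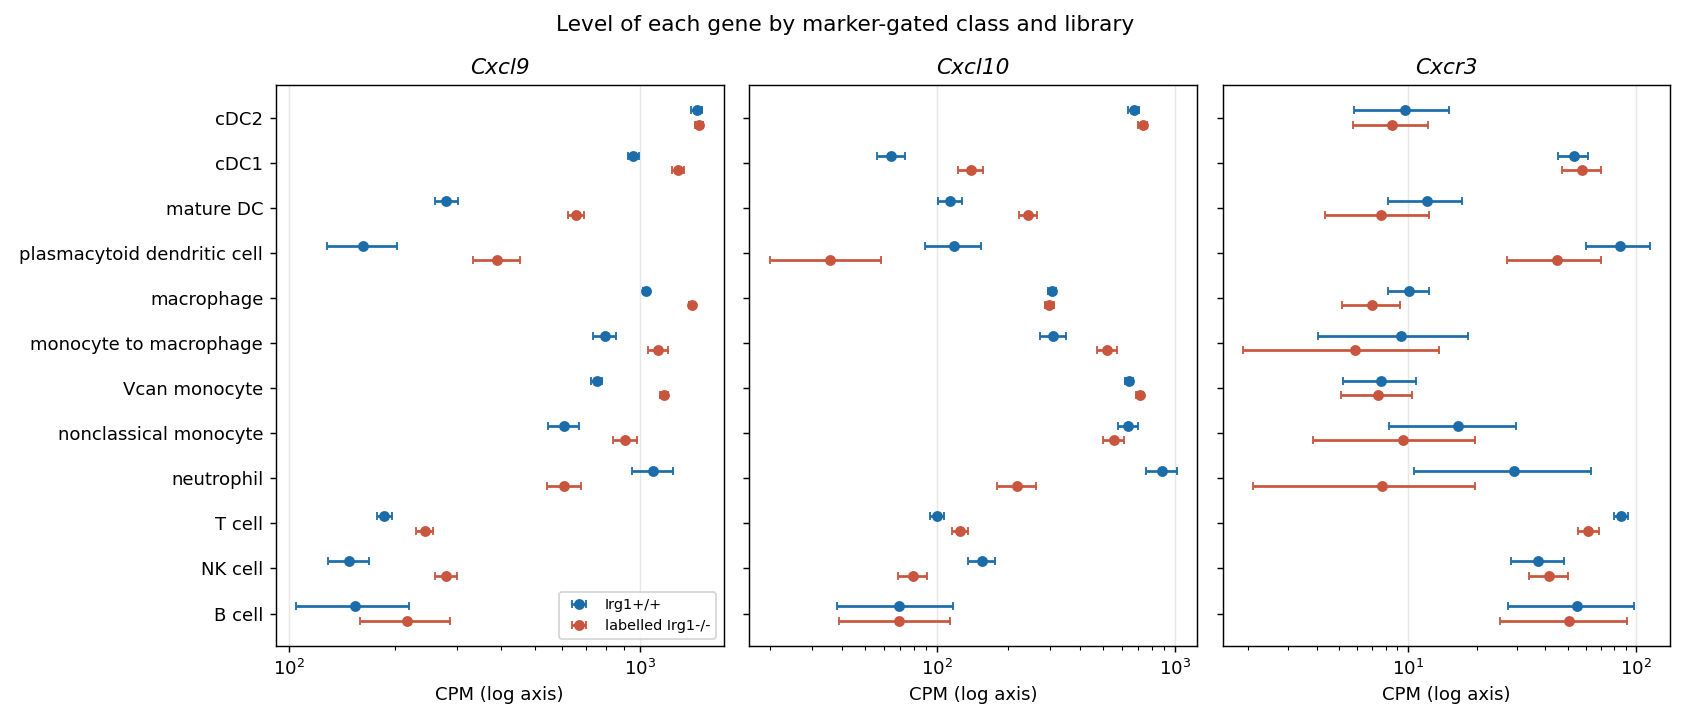
Levels of *Cxcl9*, *Cxcl10* and *Cxcr3* in CPM (log axis) in 12 marker-gated classes of the *Irg1*+/+ library (blue) and the library labelled *Irg1*-/- (red). Points are sums over the cells of a class and bars are 95% Poisson intervals. By summed UMIs cDC2-like cells led *Cxcl9* at 1447 and 1468 CPM, while *Cxcr3* was highest in T cell-like cells and plasmacytoid dendritic cell-like cells of the *Irg1*+/+ library.

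T, NK and B cell-like cells were taken as the reference level for the ligands, called the lymphocyte background here. Its source was not tested. They had 181 and 254 CPM of *Cxcl9*, which was 17.4% and 18.1% of the macrophage-like level, and 107 and 110 CPM of *Cxcl10*, or 35.2% and 37.0%. For the macrophage genes *C1qa*, *C1qb*, *C1qc* and *Apoe*, which lymphocytes lack, the same percentages ran from 7.27% (*C1qa*, *Irg1*+/+) to 15.2% (*Apoe*, labelled *Irg1*-/-). Relative to macrophages the lymphocyte level was thus higher for the ligands than for these genes. Macrophage-like cells were not the highest class for the ligands, which raises these percentages, above all for *Cxcl10*. It was at 305 and 297 CPM in them but at 642 and 713 CPM in Vcan monocyte-like and 673 and 732 CPM in cDC2-like cells. The comparison therefore cannot decide whether lymphocytes held more ligand RNA than macrophage RNA would bring. The background was not uniform. Single T cell-like cells held up to 183 and 170 *Cxcl9* UMIs, and in the *Irg1*+/+ library *Cxcl9* was at 415 CPM in non-cycling CD8 cells, 2.30-fold the background (2.08 to 2.54), and at 129 CPM in cycling T cell-like cells, 0.717 times it (0.658 to 0.779). In the other library these were 1.41-fold (1.196 to 1.63) and 0.932 times (0.864 to 1.01). Against this background, *Cxcl9* was 8.01-fold (7.56 to 8.49) and 5.78-fold (5.50 to 6.09) higher in cDC2-like cells and 5.76-fold and 5.52-fold higher in macrophage-like cells. *Cxcl10* was 5.99-fold (5.59 to 6.43) and 6.51-fold (6.04 to 7.01) higher in Vcan monocyte-like cells. In cDC1-like cells of the *Irg1*+/+ library *Cxcl10* was 0.601 times the background (0.516 to 0.695), and in the library labelled *Irg1*-/- it was 1.27 times the background (1.10 to 1.46), so little or no expression above it was seen.

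The balance of the ligands leaned far toward *Cxcl9* in cDC1-like cells, which specialize in cross-presentation of antigen to CD8 T cells. The UMI ratio of *Cxcl9* to *Cxcl10* is used here only to compare classes, because capture may differ between genes. It was 14.8 (12.9 to 17.1) and 9.19 (8.08 to 10.5) in cDC1-like cells. In plasmacytoid cells it was 1.37 (0.96 to 1.98) and 10.7 (6.48 to 20.1), from 56 and 15 *Cxcl10* UMIs. In macrophage-like cells it was 3.42 (3.28 to 3.56) and 4.72 (4.50 to 4.95). In cDC2-like cells it was 2.15 (2.01 to 2.30) and 2.00 (1.91 to 2.10), and in Vcan monocyte-like cells 1.17 (1.11 to 1.23) and 1.63 (1.56 to 1.71). Monocytes and cDC2-like cells therefore had a balance nearer to *Cxcl10* than macrophage-like and cDC1-like cells in both libraries.

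Within macrophage-like cells the ligands also followed different subsets, which were scored on other genes. Cells with the highest MHC class II score (*H2-Aa*, *H2-Ab1*, *H2-Eb1* and *Cd74*, genes of antigen presentation) numbered 273 and 322 and had 1849.9 CPM of *Cxcl9* (1797.5 to 1903) in the *Irg1*+/+ library and 2264 CPM (2213 to 2317) in the other. The 209 and 148 cells of the Vegfa score (with Vegfa, *Spp1*, *Hilpda* and *Ndrg1* among its genes, which mark hypoxic and tissue-remodeling macrophages) had 414 CPM (388 to 441) and 469 CPM (432 to 508). The *Cxcl9* to *Cxcl10* ratio was 7.78 and 5.69 in the MHC class II subset and 1.06 and 1.70 in the Vegfa subset. *Cxcl10* in the *Irg1*+/+ library was lower in the MHC class II subset (237 CPM, 219 to 257) than in the Vegfa subset (391 CPM, 366 to 418). In the library labelled *Irg1*-/- that order turned, with 398 CPM (376 to 420) and 276 CPM (248 to 306).

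**Figure D2:**
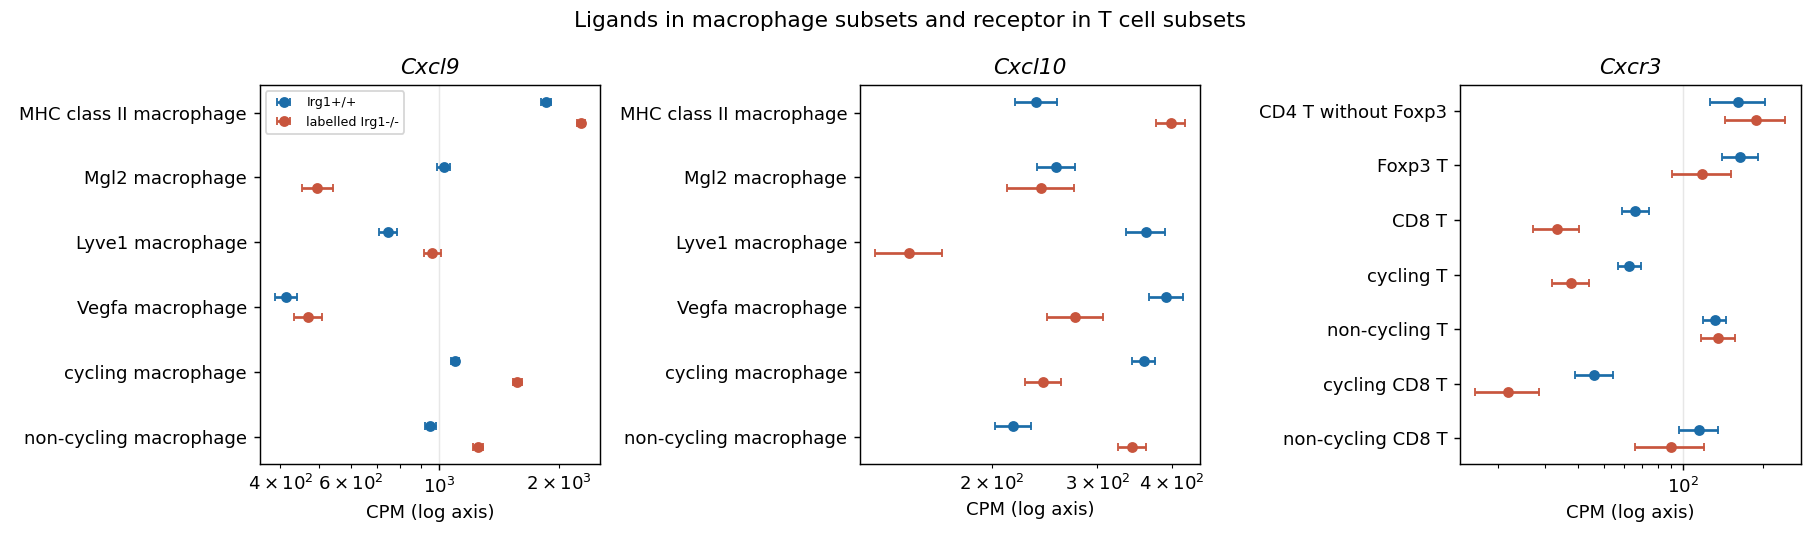
*Cxcl9* and *Cxcl10* in macrophage-like subsets and *Cxcr3* in T cell-like subsets, in CPM (log axes) with 95% Poisson intervals, for the *Irg1*+/+ library (blue) and the library labelled *Irg1*-/- (red). The MHC class II subset had the highest *Cxcl9*, at 1849.9 and 2264 CPM, and cycling T cell-like cells had less *Cxcr3* than non-cycling ones in both libraries.

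Between the libraries, *Cxcl9* was higher in the one labelled *Irg1*-/- by a log2 ratio of 0.56 (0.54 to 0.58) over all kept cells, and *Cxcl10* by 0.39 (0.35 to 0.42). The lymphocyte background was itself higher for *Cxcl9*, by 0.49 (0.40 to 0.58), and near equal for *Cxcl10*, with 0.033 (-0.09 to 0.16). Over all kept cells *Cxcr3* was lower, with a log2 ratio of -0.50 (-0.62 to -0.37). None of the 3 passed 1.5-fold, which 5.58% of 14204 genes with at least 20 UMIs did upward and 9.82% did downward. With TMM factors *Cxcl9*, at 0.63, was past it, and with thinned cells *Cxcr3*, at -0.65, was. Thinning drew each cell with at least 2000 UMIs down to 2000 at random and left out the 1486 and 1292 kept cells below that, so every thinned share given here is a share of the deeper cells. With the class sizes of the *Irg1*+/+ library, the levels of the library labelled *Irg1*-/- would give 1009 CPM of *Cxcl9* in place of 1045, 331 CPM of *Cxcl10* in place of 374 and 27.0 CPM of *Cxcr3* in place of 23.9. The levels of the *Irg1*+/+ library with the class sizes of the other would give 753 CPM of *Cxcl9* in place of 709, 339.6 CPM of *Cxcl10* in place of 286 and 29.4 CPM of *Cxcr3* in place of 33.7. By both, most of the *Cxcl9* difference lay within these broad classes, while class sizes made up a larger share of the *Cxcl10* and *Cxcr3* differences. Cells without a class were held as 1 class, and shifts among the subsets of a class count as within it. In macrophage-like cells the *Cxcl9* log2 ratio of 0.43 was above those of the MHC class II (0.29), Lyve1 (0.37), Vegfa (0.18) and Mgl2 (-1.05) subsets. The MHC class II subset numbered 273 and 322 cells and the Mgl2 subset 182 and 84. The part of subset sizes was not tested.

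In mature DC-like cells, the kind of dendritic cell that carries antigen to lymph nodes, both ligands were higher in the library labelled *Irg1*-/-. In the *Irg1*+/+ library *Cxcl10* was at the lymphocyte background there (1.06-fold, 0.93 to 1.21) and *Cxcl9* at 1.55-fold of it (1.42 to 1.69), less than non-cycling CD8 cells, and in the other library they were at 2.20-fold and 2.59-fold. *Cxcl9* was at 280.1 CPM (260 to 302) under the label *Irg1*+/+ and at 656 CPM (622 to 691) under *Irg1*-/-, which gives a log2 ratio of 1.23 (1.09 to 1.36). *Cxcl10* was at 114 CPM (101 to 128) and 241 CPM (221 to 263), a log2 ratio of 1.09 (0.87 to 1.30). *Cxcr3* had 30 and 16 UMIs there, a log2 ratio of -0.65 (-1.64 to 0.26). Of the 3 genes, both ligands were past 1.5-fold higher, as were 5.97% of 9282 genes, and *Cxcr3* was past it lower, as were 8.66%. Markers of monocytes moved the same way in these cells, with the 7 genes of the Vcan monocyte list at 979 and 1282 summed CPM (*Thbs1* highest at 487 CPM in the *Irg1*+/+ library, *Ly6c2* at 472 CPM in the other, 0 genes undetected) and the 10 genes of the macrophage list at 1118 and 1195 (*C1qb* highest, 0 undetected). The NK cell list was at 157 and 300.5 (*Gzma* highest at 123 and 215 CPM, 0 of 8 undetected), the T cell list at 556 and 371, and the cells' own list at 13991 and 11966. The part of these lists in the result was not tested. Of the 334 and 279 cells that could be thinned (63 and 35 were left out), the share with *Cxcl9* was 26.6% (22.0 to 31.7) and 40.5% (34.7 to 46.5), while for *Cxcl10* it was 20.1% (15.9 to 24.8) and 17.9% (13.6 to 22.9). The share with at least 5 UMIs was 2.69% and 7.17% for *Cxcl9* and 0.599% and 3.94% for *Cxcl10*.

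In Vcan monocyte-like cells, whose markers include *Ly6c2* and *Ccr2*, genes of classical monocytes, *Cxcl9* was 1.55-fold higher (1.49 to 1.63) in the library labelled *Irg1*-/-, at 1166 against 750.4 CPM. It was thereby 1 of the 3 genes past the fold upward, as were 5.01% of 10019 genes (8.12% downward), and under classes made by clustering its log2 ratio was 0.23. It was also under 1.5-fold in 4 other settings. The macrophage list was at 2550 and 2969 summed CPM there (0 of 10 undetected), the NK cell list at 105.5 and 226 (*Gzma* highest at 73.5 and 167 CPM, 0 of 8 undetected) and their own list at 14719 and 15060, and the part of these lists was not tested. *Cxcl10* was at 642 and 713 CPM, a log2 ratio of 0.15 (0.08 to 0.23). In macrophage-like cells the log2 ratio was 0.43 (0.39 to 0.47) for *Cxcl9* and -0.04 (-0.12 to 0.04) for *Cxcl10*, and none of the 3 genes was past the fold there, where 5.01% of 11336 genes were upward and 6.79% downward. Markers of some other classes were higher there too, with the Vcan monocyte list at 3016 and 3996 summed CPM (*Thbs1* highest at 1475 and 1542 CPM, 0 of 7 undetected), the NK cell list at 120 and 285 (*Gzma* highest at 80.2 and 206 CPM, 0 of 8 undetected) and the neutrophil list at 108 and 189 (*Csf3r* highest at 37.0 and 58.4 CPM, 0 of 8 undetected). Lists of other classes were lower, among them T cell (492 and 401), melanocyte (194 and 94.8), cDC1 (710 and 687) and mature DC (296 and 285). Their own list was at 11400.3 and 11601, and the part of these lists was not tested. *Cxcl10* went in opposite directions within macrophage-like cells. In cells with at least 2 of 5 cycling genes detected (323 and 214 cells) *Cxcl10* was at 358 and 243 CPM, a log2 ratio of -0.56 (-0.68 to -0.44). In the other macrophage-like cells (482 and 492) it was at 217 and 343 CPM, a log2 ratio of 0.66 (0.53 to 0.79). Cycling cells were deeper (medians of 17372 and 14446.5 UMIs against 6172 and 7080.0), and the part of depth was not tested. *Cxcl9* was higher in both, by log2 ratios of 0.52 and 0.40. The MHC class II subset had higher values of both ligands, by log2 ratios of 0.29 for *Cxcl9* and 0.74 for *Cxcl10*. The Lyve1 subset, with genes of resident perivascular macrophages, had a log2 ratio of 0.37 for *Cxcl9* and of -1.31 (-1.53 to -1.10) for *Cxcl10*, at 362 and 146 CPM. The mean of each cell's own CPM of *Cxcl10* was 223 and 171 there, and 18.6% (11.4 to 27.7) and 17.2% (11.1 to 24.9) of the 97 and 128 thinned cells had it, so the size of this difference rested on the summed UMIs. The Mgl2 subset (182 and 84 cells) differed in the other ligand, with *Cxcl9* at 1026 and 495 CPM, a log2 ratio of -1.05 (-1.19 to -0.91), and *Cxcl10* at 256 and 242 CPM.

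The cDC2-like cells, highest for *Cxcl9* by summed UMIs, had nearly equal summed levels in both libraries. The log2 ratio was 0.02 (-0.05 to 0.09) for *Cxcl9* and 0.12 (0.03 to 0.22) for *Cxcl10*. The share of cells with *Cxcl9* was not equal, at 42.7% and 53.7% of 255 and 417 thinned cells. With all UMIs it was 65.9% and 79.1%. For *Cxcl10* the thinned shares of cDC2-like cells were 32.5% and 33.8%. The Vcan monocyte list was at 1785 and 2662 summed CPM in them (*Ccr2* highest at 673 CPM in the *Irg1*+/+ library, *Ly6c2* at 1147 CPM in the other, 0 of 7 genes undetected) and their own list at 2821 and 2704, and its part in the result was not tested. In cDC1-like cells *Cxcl9* was higher by 0.42 (0.34 to 0.50). The Vcan monocyte list was at 1332 and 1896 summed CPM there (*Thbs1* highest at 410.2 CPM in the *Irg1*+/+ library, *Ly6c2* at 765 CPM in the other, 0 of 7 undetected), the NK cell list at 101.6 and 235 (*Gzma* highest at 68.9 and 161 CPM, 0 of 8 undetected) and their own list at 5277 and 5130.4, and the part of these lists was not tested. Their *Cxcl10* ratio of 1.11 (0.84 to 1.38) was 0.70 without the highest cell of each library, which held 42 of 212 and 101 of 253 UMIs. Neutrophil-like cells went the other way, with *Cxcl9* at 1084 and 608 CPM and *Cxcl10* at 881 and 218 CPM. These were few, shallow cells (73 and 208 cells with medians of 1969 and 1954 UMIs), and with classes made by clustering the log2 ratio of *Cxcl9* was 0.027 in place of -0.84. Their own marker list was at 11839 and 15883 summed CPM, the Vcan monocyte list at 5891 and 7211 (*Thbs1* highest at 4240.1 and 4722 CPM, 0 of 7 undetected), the T cell list at 731 and 386 (*Trbc2* highest at 252 and 123 CPM, 0 of 8 undetected), the NK cell list at 198 and 523 (*Gzma* highest at 169 and 349 CPM, 2 and 0 of 8 undetected) and the macrophage list at 2265 and 1964 (*C1qb* highest at 673 CPM in the *Irg1*+/+ library, *Apoe* at 461 CPM in the other, 0 of 10 genes undetected), and their part in the result was not tested. In NK cell-like cells, *Cxcl9* at 148 and 280 CPM and *Cxcl10* at 154 and 79.5 CPM compared with 187 and 243 CPM of *Cxcl9* and 100.1 and 125 CPM of *Cxcl10* in T cell-like cells. The lymphocyte background includes the NK cell-like cells themselves.

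Against all genes of a class, the counts past 1.5-fold read as follows. In cDC1-like cells *Cxcl10* alone of the 3 was past it, upward, where 5.61% of genes were (8.32% downward), and in cDC2-like cells none was, where 5.66% and 7.58% of genes were. In neutrophil-like cells both ligands were past it downward, where 18.2% of genes were (11.0% upward), and TMM scaling shifted all ratios of this class by 0.17. In cells between monocyte and macrophage *Cxcl10* was past it upward (9.34% of genes, 9.78% downward), and in nonclassical monocyte-like cells neither ligand was (7.52% and 9.65%). In plasmacytoid cells *Cxcl9* was past it upward (9.04%) and *Cxcl10* and *Cxcr3* downward (11.1%), though with thinned cells the log2 ratio of *Cxcl10* there was 0.14. In NK cell-like cells *Cxcl9* was past it upward (5.89%) and *Cxcl10* downward (7.56%). None of the 3 was past it in T cell-like cells or in B cell-like cells, where 10.7% and 13.9% of genes were. In cells without a class *Cxcl9* was past it upward, at 1057 and 1692 CPM, where 5.27% of genes were (8.54% downward).

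**Figure D3:**
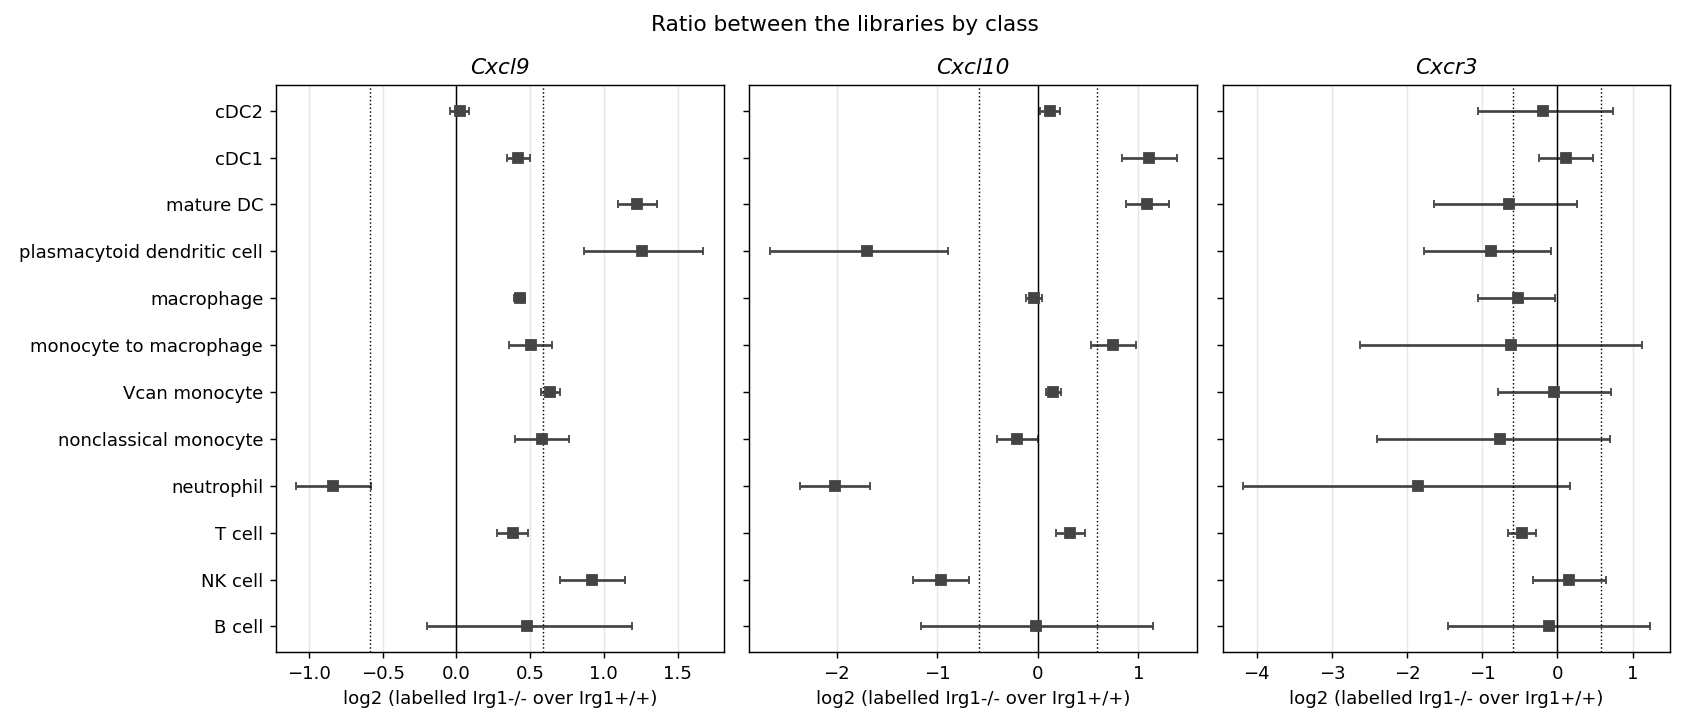
Log2 ratio of each gene between the library labelled *Irg1*-/- and the *Irg1*+/+ library in 12 classes, with 95% counting intervals. The dotted lines mark 1.5-fold in either direction. The ratio of *Cxcl9* was above 0 in every class but neutrophil-like cells, where classes made by clustering gave 0.027, with intervals that hold 0 in cDC2-like and B cell-like cells, whereas *Cxcl10* ranged between -2.01 (neutrophil-like cells) and 1.11 (cDC1-like cells).

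Most cells of a class held few ligand UMIs and a few held many. Among macrophage-like cells of the *Irg1*+/+ library the median was 2 UMIs of *Cxcl9*, the upper quartile 8 and the highest cell 362. In the library labelled *Irg1*-/- these values were 2, 11.75 and 324. Over all kept cells, 50% of the *Cxcl9* UMIs were in 164 cells (2.61%) of the *Irg1*+/+ library and in 209 cells (3.61%) of the other, and 50% of the *Cxcl10* UMIs in 146 (2.32%) and 182 cells (3.14%). Of the top 1% of cells by *Cxcl9*, 26 of 63 and 21 of 58 were macrophage-like. These cells held 28.6% and 21.8% of the *Cxcl9* UMIs but 2.87% and 2.45% of the UMIs of all genes. UMIs of 1 cell are not independent draws, and the intervals are narrower than the spread between cells would give.

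**Figure D4:**
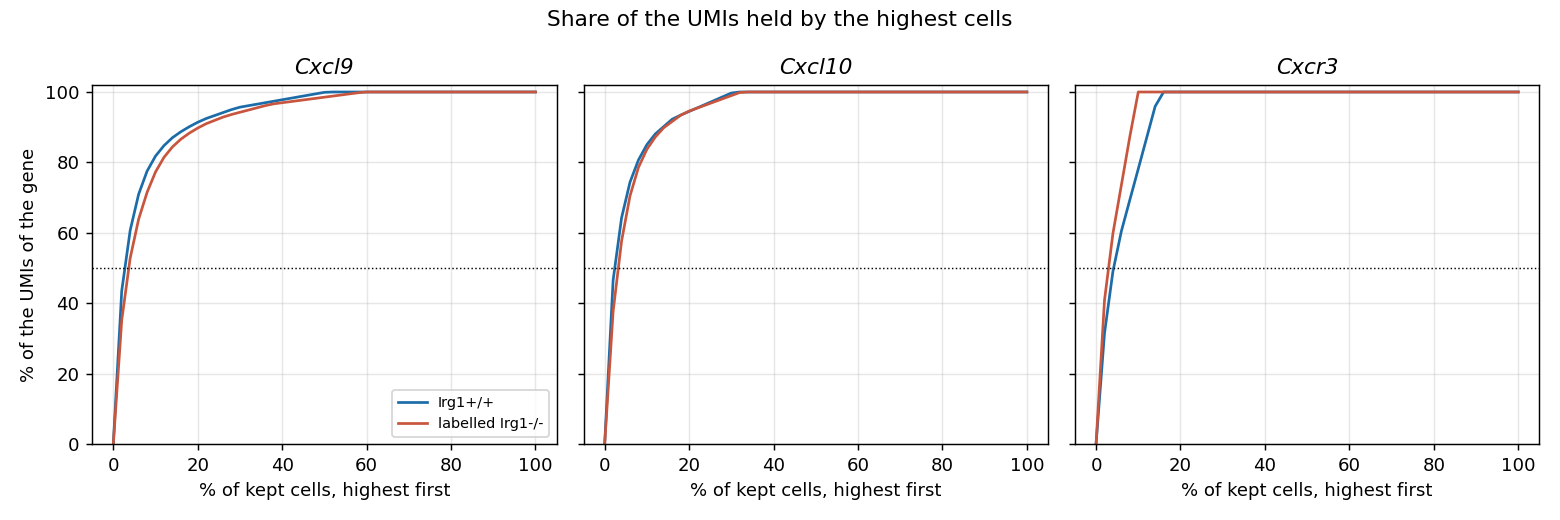
Percent of the UMIs of *Cxcl9*, *Cxcl10* and *Cxcr3* (vertical axis) held by the given percent of kept cells, ordered from the highest cell down (horizontal axis), for the *Irg1*+/+ library (blue) and the library labelled *Irg1*-/- (red). The dotted line marks 50%, which *Cxcl9* reached at 2.61% and 3.61% of cells.

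High producers set the ligand-making classes apart from the background more clearly than detection did. Of cells thinned to 2000 UMIs, 12.7% and 15.9% of 675 and 628 macrophage-like cells and 17.3% and 17.7% of 255 and 417 cDC2-like cells had at least 5 UMIs of *Cxcl9*, against 0.743% and 0.825% of 1481 and 1212 lymphocyte-like cells. Shallower cells were left out (130 and 78 macrophage-like, 6 and 14 cDC2-like, 306 and 352 lymphocyte-like). At least 1 UMI was found in 48.3% and 54.5% of the thinned macrophage-like cells, and in 20.1% and 29.7% of the thinned lymphocytes. The unthinned shares were 74.3% and 78.9% in macrophage-like cells, with medians of 9606 and 8997.5 UMIs, and 40.9% and 45.4% in lymphocytes, with medians of 3547 and 2869.5.

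The 2 ligands were found in the same cells more often than the product of their shares. Of the 4798 cells of the *Irg1*+/+ library that could be thinned to 2000 UMIs, 8.67% (7.89 to 9.50) had both, where the product of the separate shares was 6.38%. In the 4502 such cells of the library labelled *Irg1*-/- the values were 13.1% (12.1 to 14.1) and 9.71%. Part of such an excess can come from pooling classes with different levels, so it was also read within classes. For cDC2-like cells the share with both was 21.2% (16.3 to 26.7) against a product of 13.9%, and 23.5% (19.5 to 27.9) against 18.2%. For Vcan monocyte-like cells it was 13.7% (11.2 to 16.5) against 9.55%, and 18.0% (15.3 to 21.0) against 14.2%. In both classes and both libraries the product lay below the interval in thinned cells. With all UMIs this did not hold for cDC2-like cells, at 34.9% (29.1 to 41.0) against 31.1% and 43.9% (39.1 to 48.7) against 40.0%. It held for Vcan monocyte-like cells, at 25.3% (22.2 to 28.6) against 20.5% and 32.2% (29.0 to 35.5) against 27.5%. Macrophage-like cells of the *Irg1*+/+ library had 10.4% (8.17 to 12.9) against 9.59%, within the interval, and those of the other library 14.8% (12.1 to 17.8) against 11.9%, just below it. T, NK and B cell-like cells, read as background, had 3.04% (2.22 to 4.04) against 2.46% and 4.13% (3.08 to 5.40) against 3.63%, both within the interval. With all UMIs they had 12.8% (11.2 to 14.4) against 8.97% and 13.6% (11.9 to 15.4) against 9.49%, with the product below the interval. Observed over product was then 1.42 and 1.43 in them. It was 1.12 and 1.10 in cDC2-like cells and 1.23 and 1.17 in Vcan monocyte-like cells. The highest value this ratio can take falls as a ligand is found in more cells. With all UMIs *Cxcl9* was found in 65.9% and 79.1% of cDC2-like cells, 50.9% and 64.5% of Vcan monocyte-like cells and 40.9% and 45.4% of lymphocytes. Without thinning the ratio therefore cannot decide whether the excess in these classes differed from the background. In cDC1-like cells the product lay within the interval in both libraries, with 12 and 19 cells that had both.

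**Figure D5:**
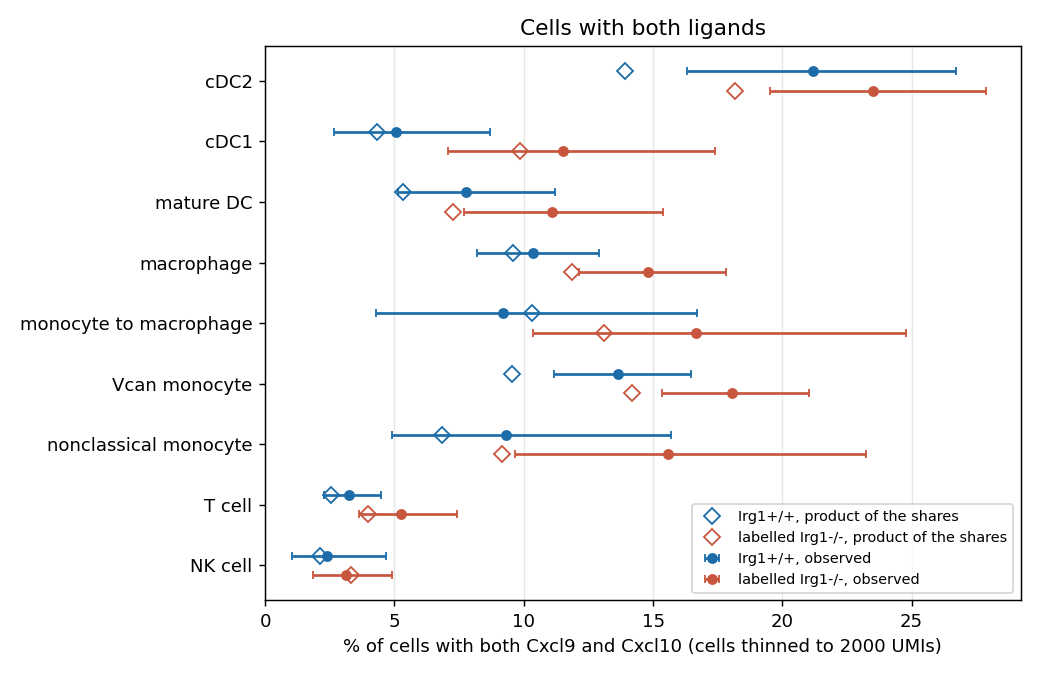
Percent of cells with both *Cxcl9* and *Cxcl10* after thinning to 2000 UMIs (filled points, 95% Clopper-Pearson intervals) beside the product of the separate shares (open diamonds), by class, for the *Irg1*+/+ library (blue) and the library labelled *Irg1*-/- (red). In cDC2-like and Vcan monocyte-like cells the observed shares, such as 21.2% and 13.7% in the *Irg1*+/+ library, lie above the product.

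*Cxcr3* was a gene of lymphocytes, plasmacytoid dendritic cells and, in these libraries, cDC1-like cells. The libraries held 1420 UMIs (33.7 CPM, 32.0 to 35.5) and 844 UMIs of it (23.9 CPM, 22.3 to 25.6), of which T cell-like cells held 53.9% and 40.6%. T cell-like cells had 85.5 CPM (79.6 to 91.8) and 61.6 CPM (55.3 to 68.5). In the plasmacytoid class the level was 84.4 CPM (60.3 to 115) and 44.9 CPM (27.1 to 70.2), in B cell-like cells 54.7 and 50.6 CPM from 11 UMIs each, and in NK cell-like cells 37.3 and 41.5 CPM. In macrophage-like cells, taken as the background, *Cxcr3* was at 10.1 and 6.97 CPM, and in thinned cells it was detected in 1.19% and 1.11% of them at medians of 9606 and 8997.5 UMIs before thinning. In the 1105 and 588 thinned T cell-like cells the share was 18.1% (15.9 to 20.5) and 14.1% (11.4 to 17.2). Intervals of T cell-like and plasmacytoid cells overlapped in each library.

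cDC1-like cells had receptor and ligand in the same class. Their *Cxcr3* level was 53.1 CPM (45.5 to 61.6) and 57.6 CPM (47.1 to 69.8), which is 5.24-fold (4.08 to 6.80) and 8.22-fold (5.85 to 11.8) the macrophage-like level. No such level was seen in cDC2-like cells (9.69 and 8.56 CPM) or mature DC-like cells (12.1 and 7.62 CPM). Among cDC1-like cells with a *Cxcr3* UMI, *Cxcl9* was at 621 and 948 CPM, and among those without one at 1275 and 1549 CPM. The share of cells with a *Cxcl9* UMI went the other way, at 84.7% (76.0 to 91.2) with *Cxcr3* against 72.2% (65.2 to 78.5) without in the *Irg1*+/+ library and 98.3% (90.8 to 99.96) against 82.8% (74.9 to 89.0) in the other. The cells with *Cxcr3* were deeper, with medians of 14515.5 and 14310.5 UMIs against 7606 and 7504.5, and the part of depth in this was not tested.

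Among T cell-like cells the receptor level depended on the subset. CD4 cells without *Foxp3* had 162 CPM (127 to 204) in the *Irg1*+/+ library and 189 CPM (145 to 243) in the other. *Foxp3*-bearing cells, which are mostly regulatory T cells, had 165 CPM (140.0 to 193) and 118 CPM (90.8 to 151). CD8 cells had 66.0 CPM (58.6 to 74.2) and 33.3 CPM (27.0 to 40.5). The subsets were set by detection of *Cd4*, *Cd8a* or *Cd8b1* and *Foxp3*, and 400 and 194 T cell-like cells without a clear subset had 76.8 and 71.1 CPM. By summed UMIs the CD4 and *Foxp3* subsets overlapped in both libraries, and CD8 cells lay below both in each library. CD8 cells were deeper, with medians of 4835.5 and 7213.5 UMIs against 2771 and 2293 in CD4 cells without *Foxp3*. Thinning kept 484 of 554 and 267 of 318 CD8 cells but 98 of 141 and 70 of 115 CD4 cells without *Foxp3*. Among these, *Cxcr3* was found in 16.9% (13.7 to 20.6) and 8.99% (5.84 to 13.1) of CD8 cells and in 16.3% (9.63 to 25.2) and 28.6% (18.4 to 40.6) of CD4 cells without *Foxp3*, so in the *Irg1*+/+ library CD8 cells were not below these in thinned cells. Of 167 and 77 thinned *Foxp3*-bearing cells, 26.9% (20.4 to 34.3) and 18.2% (10.3 to 28.6) had it, and these intervals overlapped those of CD8 cells in both libraries.

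In CD8 T cell-like cells *Cxcr3* was lower in the library labelled *Irg1*-/-, with a log2 ratio of -0.98 (-1.33 to -0.65). Cycling cells made up 239 of the 554 CD8 cells of the *Irg1*+/+ library and 172 of the 318 of the other. In them *Cxcr3* was at 46.1 and 21.8 CPM, a log2 ratio of -1.07 (-1.56 to -0.62). In the others it was at 115 CPM (96.8 to 135) and 89.9 CPM (65.6 to 120.3), and the interval of the ratio, -0.87 to 0.14, holds 0. Over all T cell-like cells the log2 ratio was -0.47 (-0.66 to -0.29), which did not pass 1.5-fold, as 6.19% of 11371 genes did downward. It was -0.73 (-1.01 to -0.47) in cycling cells and 0.05 (-0.22 to 0.30) in non-cycling cells, at 132 and 136 CPM. Cycling cells were deeper (medians of 10803.5 and 11800.0 UMIs against 3073 and 2482). Thinning kept 458 of 484 and 285 of 309 cycling but 647 of 827 and 303 of 441 non-cycling cells. Among these, *Cxcr3* was found in 13.1% (10.2 to 16.5) and 5.61% (3.24 to 8.96) of cycling and in 21.6% (18.5 to 25.01) and 22.1% (17.6 to 27.2) of non-cycling T cell-like cells. The mean over T cell-like cells of each cell's own CPM, which weights shallow cells equally, gave a log2 ratio of -0.12. In NK cell-like cells the ratio was 0.15 (-0.33 to 0.65), and in plasmacytoid cells -0.89 (-1.78 to -0.09) from 40 and 19 UMIs.

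*Ifng*, which encodes the interferon that induces both ligands, had 78.8 and 75.2 CPM over all kept cells. In T cell-like cells with a *Cxcr3* UMI it was at 121 and 165 CPM, and in those without one at 332 and 297 CPM. The shares of cells with *Ifng* were closer, at 32.9% (28.6 to 37.4) against 36.5% (33.3 to 39.8) in the *Irg1*+/+ library and 29.4% (23.3 to 36.2) against 38.6% (34.5 to 42.9) in the other. In NK cell-like cells the shares went the other way, at 44.0% (30.0 to 58.7) with *Cxcr3* against 34.7% (29.7 to 39.9) without and 50% (38.7 to 61.3) against 36.1% (32.4 to 39.9), with overlapping intervals. In *Foxp3*-bearing T cell-like cells they were 19.0% (11.3 to 29.1) against 10.3% (5.06 to 18.1) and 15.6% against 15.4%. T cell-like cells with *Cxcr3* were deeper (medians of 5041.5 and 4243 UMIs against 3498 and 3344), as were NK cell-like cells with it (3719.5 and 4131.5 against 2755 and 2605). The part of depth and of cycling in these differences was not tested.

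The other genes of the axis were taken as lists of inputs, handling and receptor function. Of 14 genes of interferon input, 3 were past 1.5-fold higher over all kept cells and 1 was past it lower (5.58% and 9.82% of all genes), with a list median of 0.12 beside -0.08 for all genes. The higher genes were *Stat2* (111.6 and 179.5 CPM), a factor of the type I interferon response, *Irf1* (528 and 799 CPM), a factor induced by interferon-γ, and *Socs1* (52.7 and 92.8 CPM), a feedback inhibitor of this signaling. *Ifnb1*, a type I interferon, was the lower gene, with 152 and 39 UMIs. In macrophage-like cells *Stat2* (log2 ratio of 0.71), *Socs1* (0.96) and *Ifnb1* (-2.13, from 97 to 16 UMIs) were past the fold, where 5.01% of all genes were upward and 6.79% downward, and *Irf1* (0.57) was just under it. The list median was 0.24 beside -0.04 for all genes.

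Of 6 genes of NF-κB input, 0 were past the fold over all kept cells, and *Tnf* was at 273 and 214 CPM. In Vcan monocyte-like cells 2 were past it lower, where 8.12% of all genes were, namely *Tnf* (493 and 251 CPM) and *Nfkbia* (1160.1 and 655 CPM), which encodes an inhibitor of NF-κB. The same genes were lower in cells between monocyte and macrophage, where 9.78% of all genes were, with log2 ratios of -0.91 and -1.03. Of 5 genes listed for processing and uptake of chemokines, 4 had enough UMIs and 2 were past the fold upward over all kept cells, where 5.58% of all genes were. These were the atypical chemokine receptors *Ackr1* (16 and 29 UMIs) and *Ackr3* (17 and 32 UMIs), and a place on the list does not mean that a receptor binds *Cxcl9* or *Cxcl10*. *Dpp4*, a protease that trims the ligands, was at 66.2 and 89.9 CPM. Among 6 genes of the receptor side 1 was past it upward (5.58% of all genes), *Eomes*, at 26.1 and 39.7 CPM, a factor of NK and CD8 cells that was also a marker of the NK class. *Tbx21*, the factor that drives *Cxcr3* in type 1 T cells, was at 40.8 and 50.8 CPM. In T cell-like cells no counted gene of the 6 lists was past 1.5-fold either way, where 3.17% of 11371 genes were past it upward and 6.19% downward.

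Among 10 genes of other chemokine pairs that draw T and NK cells, 1 was higher and 2 were lower past the fold over all kept cells (5.58% and 9.82% of all genes). *Cxcl12* was higher from 28 to 113 UMIs. *Cxcr6*, the receptor for *Cxcl16* on tissue T cells, was lower at 61.8 and 33.6 CPM, and *Xcr1*, the cDC1 receptor for *Xcl1*, at 92.3 and 56.1 CPM, in a library with fewer T cell-like and cDC1-like cells. Within T cell-like cells the log2 ratio of *Cxcr6* was -0.43 (-0.54 to -0.32). *Ccl5* had a log2 ratio of 0.26 (0.24 to 0.28). *Tet2*, which the study named for the ligands, was at 137 and 152 CPM. *Acod1* in macrophage-like cells was at 88.3 and 142 CPM, a log2 ratio of 0.69 (0.55 to 0.82).

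Over the 12 classes with at least 50 cells in both libraries, the genes whose level followed a member most closely were ranked by the lower of the Pearson r of the libraries (12 classes, log2 of CPM + 1, classes of a library sharing its background). For *Cxcl9* these were *Ralb* (r of 0.91 and 0.91), *Rnh1*, *Spi1*, *Acvrl1* and *Plbd1*, of which *Spi1* encodes the myeloid factor PU.1. For *Cxcl10* they were *Ifitm3* (0.90 and 0.89), *Oas1g*, *Gbp2*, *Itga5* and *Ifitm2*, and *Ifitm3*, *Oas1g*, *Gbp2* and *Ifitm2* are interferon-induced genes. For *Cxcr3* they were *Baz1b* (0.85 and 0.87), *Ssbp3*, *Fdxr*, *Cyfip2* and *Polr2b*. With 10 CPM added in place of 1 CPM, 3 of these 5 genes remained for *Cxcl9*, 4 for *Cxcl10* and 3 for *Cxcr3*.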

How the data were processed

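Deposited values were raw UMI counts per gene and cell, made by the authors from BD Rhapsody libraries with fastp, UMI-tools and STAR (mouse genome of Ensembl, GRCm38 per the labels, where CASAVA 1.8 and Seurat are also named). UMIs tag the 3′ ends of transcripts. A cell entered if more than 200 genes were detected and less than 10% of its UMIs were mitochondrial, which removed 124 and 102, and mitochondrial genes were then left out. A cell took the class whose markers had the highest mean z score (capped at 10), if at least 0.5, leading by 0.25, with at least 3 markers detected. Cells close between monocyte and macrophage formed a class of their own. These limits were set after seeing the data. Scrublet called 0 doublets in either library and so did not work here. Doublets were kept. Log2 ratios used a pseudocount of 0.5 UMIs. A gene counted for the background had at least 20 UMIs over both libraries. Fold background was read at 1.5-fold. Named genes were the members, the pathway lists and the 5 most similar genes of each member. The members, lists and rules were chosen with earlier results of these data known. The ratio step was tested on simulated data. Tools were Python 3.11.15, scanpy 1.11.5, scipy 1.17.1, pandas 2.3.3, numpy 2.4.6 and edgeR 4.0.16 (TMM factors only). Alternatives were other gates, clusters, filters, thinning and scaling. Some members of the gene lists entered counts, medians and scores but are not reported here by name.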

Additional observations from a re-analysis of the deposited data

Results flagged for a closer look

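Both ligands were past 1.5-fold in opposite directions in different classes, with counting intervals on 1 side of 0. With 1 library per genotype these differences between classes were not tested. The log2 ratio of *Cxcl9* was 0.64 in Vcan monocyte-like, 1.23 in mature DC-like, 1.26 in plasmacytoid dendritic cell-like and 0.92 in NK cell-like cells, but -0.84 in neutrophil-like cells. That of *Cxcl10* was 0.75 in cells between monocyte and macrophage, 1.11 in cDC1-like and 1.09 in mature DC-like cells, but -2.01 in neutrophil-like, -1.70 in plasmacytoid dendritic cell-like and -0.96 in NK cell-like cells. With thinned cells the *Cxcl10* ratio in plasmacytoid cells was 0.14, and 7.46% (2.47 to 16.6) and 11.5% (4.74 to 22.2) of them had it. In cells between monocyte and macrophage the thinned share with *Cxcl10* went opposite to the ratio, at 32.7% (23.5 to 42.9) and 27.2% (19.3 to 36.3), with overlapping intervals. In plasmacytoid cells 1 cell held 75 of 165 *Cxcl9* UMIs in the library labelled *Irg1*-/- and 1 held 28 of 56 *Cxcl10* UMIs in the *Irg1*+/+ library, and without the highest cell of each library the ratios were 0.75 and -1.13. In NK cell-like cells the values without them were 0.77 and -0.62. Several of these levels were near the lymphocyte background of their library. In plasmacytoid cells *Cxcl10* was 1.11 and 0.334 times that background and *Cxcl9* 0.905 and 1.54 times, in NK cell-like cells, which are themselves among the lymphocytes of that background, *Cxcl10* was 1.44 and 0.726 times and *Cxcl9* 0.820 and 1.10 times, and in mature DC-like cells *Cxcl10* was 1.06 times in the *Irg1*+/+ library. In cDC1-like cells *Cxcl10* was 0.601 and 1.27 times it. In plasmacytoid cells the summed CPM was 4410 and 5431 for the Vcan monocyte list, 1521 and 1967 for the macrophage list and 740 and 497 for the T cell list. In NK cell-like cells the same lists were at 2121 and 2690, 1130.5 and 1347, and 1417 and 1095. The NK cell list was at 137 and 270 in plasmacytoid cells and 152 and 319 in cells between monocyte and macrophage. The part of these lists was not tested.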

How the results depend on the processing

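No paired analysis was possible because each genotype has 1 library. Alternatives were run on the 39 log2 ratios of all kept cells and the 12 classes (36 with a stricter gate and 30 with clusters). Ratios of the subsets and of cells without a class were not rerun. Under 9 alternative settings those of the 39 past 1.5-fold kept their direction with 2 exceptions, whose cause was not tested: *Cxcl9* in neutrophil-like cells was 0.027 in place of -0.84 with classes from clusters, and *Cxcl10* in plasmacytoid dendritic cell-like cells was 0.14 in place of -1.70 with thinned cells. The 16 log2 ratios past 1.5-fold include *Cxcr3* in cells between monocyte and macrophage (8 and 5 UMIs), nonclassical monocyte-like (11 and 7) and neutrophil-like cells (6 and 4). These lay below the floor of 20 UMIs used for the class counts above. Of the 16, 16 stayed past 1.5-fold with TMM factors (which shift all genes by 0.07 over all kept cells), 15 with mitochondrial shares under 5%, 13 with the mean of each cell's CPM, 12 with a stricter gate and 10 with thinned cells. With classes from clusters 9 of 13 did. Leaving out the highest cell of each library, a setting chosen after seeing the data, kept 15.
Over all kept cells *Cxcl9* was 0.52 with mitochondrial shares under 5%, 0.53 thinned, 0.49 with the mean of each cell's CPM and 0.63 with TMM factors. *Cxcl10* was 0.31 thinned, 0.28 with the mean and 0.46 with TMM, and *Cxcr3* was -0.65 thinned. In Vcan monocyte-like cells *Cxcl9* was 0.46 with the stricter gate, 0.23 with clusters, 0.56 with mitochondrial shares under 5%, 0.50 thinned and 0.55 with the mean, so it was under 1.5-fold in each of these. *Cxcl10* there was 0.058 with the stricter gate, 0.063 with clusters and 0.073 with the mean. In macrophage-like cells *Cxcl9* was 0.56 with the stricter gate, 0.38 with clusters and 0.32 with mitochondrial shares under 5%. *Cxcl10* there was 0.24 with clusters, -0.13 with mitochondrial shares under 5%, 0.28 thinned and 0.074 with the mean, and so had no settled direction. In mature DC-like cells *Cxcl10* was 0.84 with clusters and 0.86 thinned. In T cell-like cells *Cxcr3* was -0.12 with the mean. Levels rest on summed UMIs, and few UMIs limit *Cxcr3* outside T cell-like and cDC1-like cells and both ligands in small classes.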

Other observations

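Cells without a class, at medians of 1804.5 and 2473.5 UMIs, held 21.8% and 23.0% of all *Cxcl9* UMIs and 19.95% and 20.4% of all *Cxcl10* UMIs. Melanocyte-like cells (98 and 16 cells) had 152 and 332 CPM of *Cxcl9* and 15.6 and 12.8 CPM of *Cxcr3*. T cell-like cells with *Trdc* and without *Cd4*, *Cd8a*, *Cd8b1* or *Foxp3*, a γδ T cell marker pattern, numbered 35 and 39 and had 10 and 4 UMIs of *Cxcr3*.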
